A study of Homo sapiens with 5 samples.

Results

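The large subunit of the cytosolic ribosome was described through 50 genes, chosen by name: the protein genes of that subunit, written RPL or RPLP, and their paralogs RPL7L1, RPL22L1, RPL26L1, RPL36AL and RPL39L. All 50 had a row among the 24497 gene rows of the deposited table, and all 50 passed the filter on low counts that left 9215 genes. Counts came from RNA sequencing of transcript 5′ ends, primed with oligo-dT, in HEK293, a widely used human cell line of embryonic kidney origin, grown in DMEM with glutamine and 10% fetal calf serum and given no named treatment in either batch. Batch B had 3 libraries and batch A had 2, each made by lysing 1000 cells and amplifying the material of 100 cells for 18 cycles, with an ERCC spike-in mix stated for all. Libraries carry here the number that closes their column in the table, 1, 2 and 3 in batch B and 2 and 3 in batch A. Separate cultures are not stated for the libraries, so p-values measure only the spread among them, which may be technical.

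The large subunit joins amino acids into protein at the peptidyl transferase centre, which is made of ribosomal RNA. Its proteins fold and brace that RNA, line the tunnel through which the new chain leaves, form the stalks that bind translation factors and tRNA, and bridge to the small subunit. Most are made from a single gene at matched amounts. Their mRNAs typically begin with a cytosine followed by an unbroken run of pyrimidines, the 5′ terminal oligopyrimidine (TOP) tract, through which growth signals control their translation. The paralogs are related copies on other chromosomes that in some tissues replace or add to the parent protein.

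Because the assay reads the 5′ ends of transcripts, the annotated starts of the genes the results turn on are shown, in RefSeq sequence of build GRCh38.p14. Each window runs from 15 bases before to 14 bases after the annotated first transcribed base, which is base 16, on the transcribed strand. Capitals mark a run of at least 5 C or T that begins with a C at that base.
RPL26 (chr17:8383179-8383208, minus strand): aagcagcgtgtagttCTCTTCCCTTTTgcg
RPL26L1, the first annotated start (chr5:172958714-172958743, plus strand): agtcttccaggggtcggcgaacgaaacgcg
RPL26L1, the other annotated start (chr5:172958865-172958894, plus strand): ggcggggcggcggccacaaacccgcaggca
RPL17 (chr18:49492451-49492480, minus strand): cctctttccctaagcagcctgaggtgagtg
RPL36A (chrX:101390996-101391025, plus strand): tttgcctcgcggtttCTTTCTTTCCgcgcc
RPL36AL (chr14:49620612-49620641, minus strand): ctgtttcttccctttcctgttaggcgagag
RPL22 (chr1:6199581-6199610, minus strand): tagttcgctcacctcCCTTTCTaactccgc
RPL22L1 (chr3:170870181-170870210, minus strand): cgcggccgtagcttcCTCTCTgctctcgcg
RPL7L1 (chr6:42879601-42879630, plus strand): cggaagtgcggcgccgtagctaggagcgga
RPL39 (chrX:119791616-119791645, minus strand): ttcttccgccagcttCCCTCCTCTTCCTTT
RPLP1 (chr15:69452803-69452832, plus strand): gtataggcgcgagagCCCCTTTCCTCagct
RPL31 (chr2:101002274-101002303, plus strand): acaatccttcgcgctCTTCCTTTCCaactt
RPL26 and RPL36A carry the capitalised run, and their paralogs RPL26L1 and RPL36AL do not at the annotated starts. RPL22 and RPL22L1 both carry it. In RPL17 a stretch rich in C and T lies upstream of the annotated start, with no such run at the start itself. In RPL36AL an unbroken stretch of C and T begins upstream and runs through the annotated start. Only 3 of its bases lie from the start on, under the minimum of 5. That says only how these windows read at the annotated starts, since read positions are not in the count table.

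The promoter table matched 42 of the 50 genes, with 55 annotated starts, and RPL5, RPL7, RPL8, RPL23, RPL23A, RPL30, RPL37 and RPL39L had no entry. A run of at least 5 pyrimidines that begins with C, searched on the transcribed strand, stood at an annotated start in 29 of the 42 genes (69.0%). The same search found it in 525 of 6865 other tested genes (7.65%) and in 19 of 26 small subunit protein genes. Among the paralogs it was found in RPL22L1, 1 of 4 with an entry, against 28 of 38 for the other large subunit genes. The search counted only bases from the annotated start on, so the stretch that crosses the start of RPL36AL did not count as a run. In the longest cases the run had 19 bases in RPL39 and 16 bases in RPL7A, both chosen after their values were seen.

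**Figure D1:**
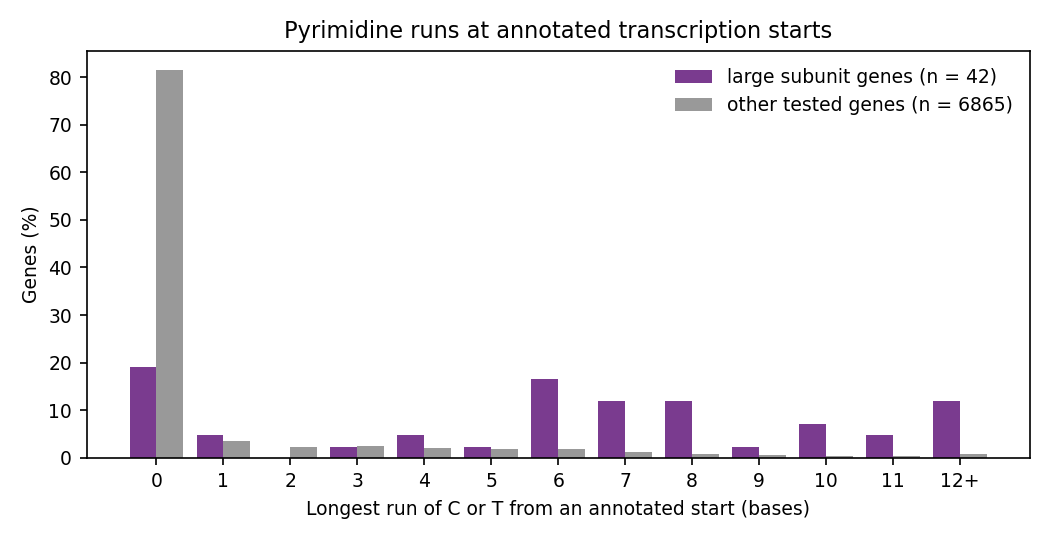
Percentage of genes (vertical axis) by the length in bases of the longest unbroken run of C or T that begins at an annotated transcription start (horizontal axis), for 42 large subunit genes (purple) and 6865 other tested genes (grey). Of the other tested genes 81.5% stand at 0 bases. Of the large subunit genes 19.0% stand at 0 bases, with the tallest purple bar, 16.7% stand at 6 bases, and the rest spread up to 12 or more.

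The 50 genes together took 7.94%, 7.49% and 6.95% of gene counts in batch B libraries 1, 2 and 3, against 7.26% and 6.85% in batch A libraries 2 and 3. The means were 7.46% ± 0.494 in batch B and 7.05% ± 0.289 in batch A (SD, n = 3 and 2), and the ranges of the batches overlapped. The difference of 0.411 percentage points was smaller than the SD within batch B. Leaving out batch B library 1 gave 0.172, leaving out batch A library 3 gave 0.206, and leaving out batch B library 3 gave 0.665. Gene counts ran from 373687 to 685181 in batch B and from 686883 to 803168 in batch A. Single counts of the 50 genes ran from 27 for RPL39L to 1743 for RPLP1. Of 14 marker genes listed for HEK293, 11 had counts in every library and PAX8 had none in any. Of 14 markers listed for blood, fibroblast, liver and endothelium, 11 had a row, CD3E, ALB and VWF had no count, and the summed level was 10.2 to 36.5 counts per 1000000 gene counts (CPM). Spike-in rows held 1 to 19 counts in batch B libraries and 1785 and 2127 counts in batch A libraries, although the same mix is stated for both, and the part of this difference in any result below was not tested.

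Divided by coding length, the levels of the 50 genes covered a wide range. RPL41, a peptide of the bridge between the subunits encoded by 75 bases, stood at 24603 ± 599.8 CPM per kb of coding sequence in batch B and 23307 ± 1244 in batch A (SD, n = 3 and 2). RPL39, which lines the peptide tunnel, stood next at 11629.9 ± 436 CPM per kb in batch B and 11425 ± 368 in batch A. RPL4, which narrows the tunnel, was the lowest of the 45 genes that are not paralogs, at 843 ± 27.7 CPM per kb in batch B and 916 ± 22.6 in batch A. Below it lay RPL26L1, RPL22L1, RPL39L and RPL7L1, with the lowest value in RPL7L1 at 433 ± 38.0 CPM per kb in batch B and 387 ± 20.4 in batch A. RPL36AL, at 2080.3 CPM per kb in batch B and 2551 in batch A, lay among the parent genes. An assay of 5′ ends counts a transcript once whatever its length, so values per kb raise short genes such as RPL41.

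Not divided by length, the counts of the 45 genes that are not paralogs kept within a narrow band of 689 to 2339.9 CPM as means over the 5 libraries. RPLP1, a protein of the stalk that recruits elongation factors, had 2631, 2359.8 and 2214 CPM in batch B libraries 1, 2 and 3, against 2325 and 2170.2 CPM in batch A libraries 2 and 3. RPL31, at the rim of the tunnel exit, had 2644, 2429 and 2113 CPM in batch B, against 2235 and 2109 CPM in batch A. Neither gene separated the batches.

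Of the 50 genes, 4 passed the quasi-likelihood test of edgeR between the batches, with p adjusted by Benjamini-Hochberg over 9215 genes. RPL26 and RPL8 rose in batch B, RPL17 and RPL26L1 fell, and 46 did not pass the test. That is 4% of the 50 in each direction, read against 2.15% of all tested genes higher and 2.05% lower (4.2% in either direction). Many tested genes had fewer counts than these 50. With only the 5974 genes of a mean count of at least 20 tested, edgeR called 6.81% of them, and the same 4 of the 50 (8%). Unadjusted p was under 0.05 for 14 of the 50 (28%), and for 16.4% of all tested genes. The log2 fold change was positive for 38 genes (76%) and negative for 12, and it was positive for 50.4% of all tested genes. The median was 0.12 over the 50 genes and 0.00 over all tested genes. The median log2 level of the 50 genes had a pooled SD within batches of 0.127, larger than that shift. All 50 genes share the same libraries, so their signs are not separate observations. In these bulk libraries, fewer cells expressing a gene and less of its RNA per cell cannot be told apart, nor can any difference in culture, preparation or sequencing between the batches. Standard errors of the 50 fold changes were 0.11 to 0.20 on the log2 scale.

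**Figure D2:**
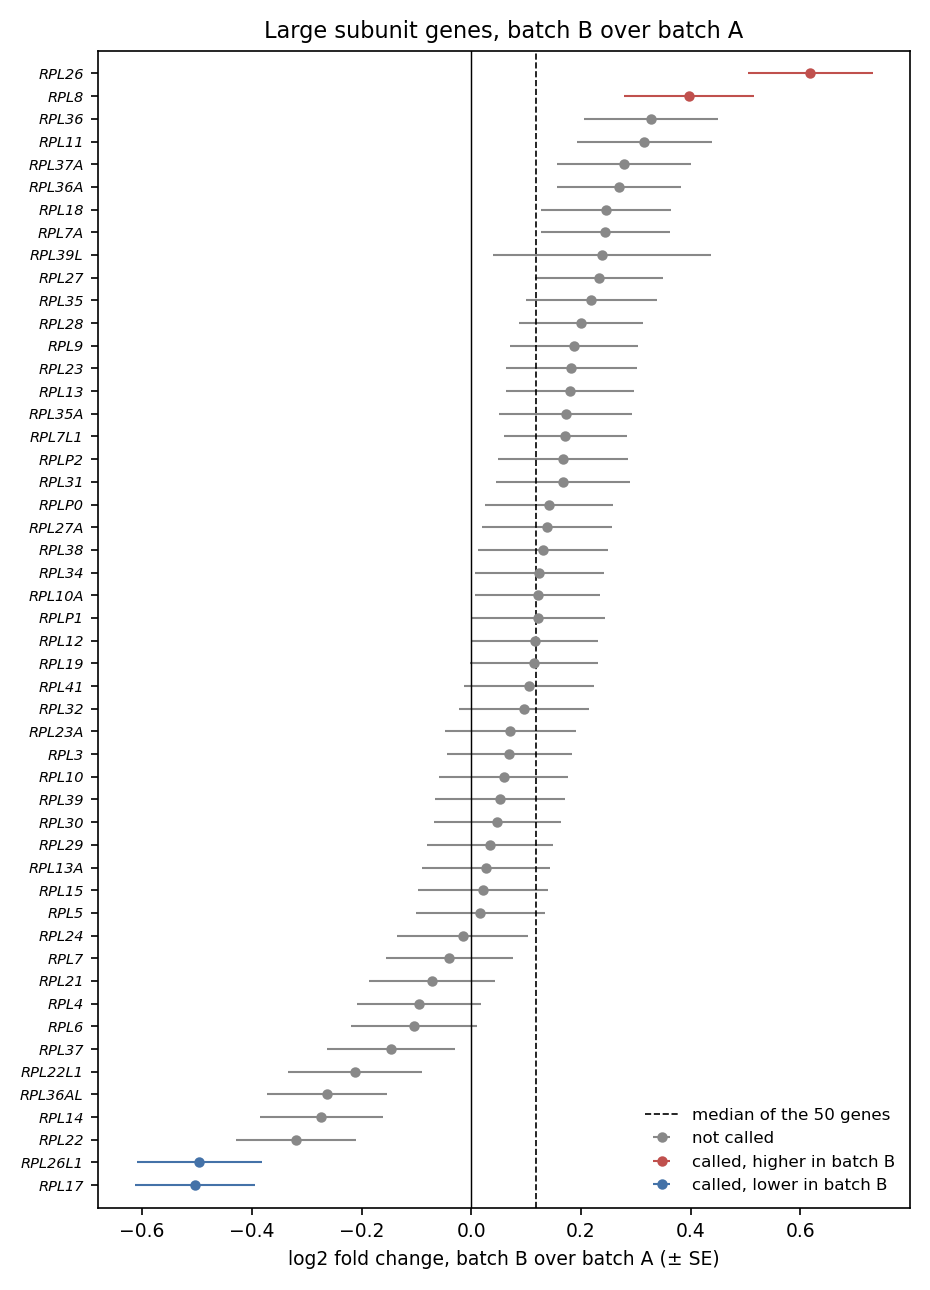
Log2 fold change of batch B over batch A for each of the 50 genes (points, horizontal axis) with its standard error (bars), sorted from the highest to the lowest, with genes on the vertical axis. RPL26 and RPL8 (red) are called higher and RPL26L1 and RPL17 (blue) lower, and the dashed line marks the median of 0.12.

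RPL26, which sits at the exit of the peptide tunnel and is modified by the UFM1 system, had the largest rise. It had 420, 604 and 688 counts in batch B libraries 1, 2 and 3, against 480 and 564 counts in batch A libraries 2 and 3. As levels these were 1124, 1049.6 and 1004 CPM in batch B, against 699 and 702 CPM in batch A. Every batch B library lay above both batch A libraries, by more than the libraries of a batch differed. The log2 fold change was 0.62 (SE 0.11, edgeR adjusted p = 1.5e-05), a fold of 1.54. The call held with each of the 5 libraries left out, at log2 fold changes of 0.56 to 0.68. Its 4 numbered pseudogene rows held 23 counts in all, against 2756 on its own row.

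RPL26L1, the paralog of RPL26 on chromosome 5, moved the other way. It had 206, 266 and 247 CPM in batch B libraries 1, 2 and 3, against 345 and 352 CPM in batch A libraries 2 and 3. No batch B library reached the batch A level. It fell by 0.50 on the log2 scale (SE 0.11, edgeR adjusted p = 0.00123), a fold of 0.709. Leaving out any of the 5 libraries kept the call, with an edgeR adjusted p of up to 0.0439.

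RPL17, whose protein narrows the peptide tunnel together with that of RPL4, had 511, 646 and 591 CPM in batch B libraries 1, 2 and 3. In batch A it had 884 and 813 CPM. Every batch B library lay below both batch A libraries. RPL17 fell by 0.50 on the log2 scale (SE 0.11, edgeR adjusted p = 0.000499), a fold of 0.705. Without batch A library 2 the fall was -0.42 and was not called (edgeR adjusted p = 0.12). Its readthrough row with C18orf32 held 1 count over all libraries and its 14 numbered pseudogene rows held 98, against 2228 on its own row.

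RPL8, beside the peptidyl transferase centre, had 1871, 1732 and 1592 CPM in batch B libraries 1, 2 and 3, against 1383 and 1292 CPM in batch A libraries 2 and 3. The batches did not overlap, though batch B spread widely. The log2 fold change was 0.40 (SE 0.12, edgeR adjusted p = 0.026), a fold of 1.32. This call was the least steady of the 4, since it was kept with 1 of the 5 libraries left out, batch B library 3 (edgeR adjusted p of up to 0.387 in the others). It was also lost when the trend with transcript GC content was removed (log2 fold change 0.25, edgeR adjusted p = 0.371), a setting added with the data in view. RPL8 is GC-rich, at 61.8% of its transcript, against a median of 48.1% for the 50 genes.

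**Figure D3:**
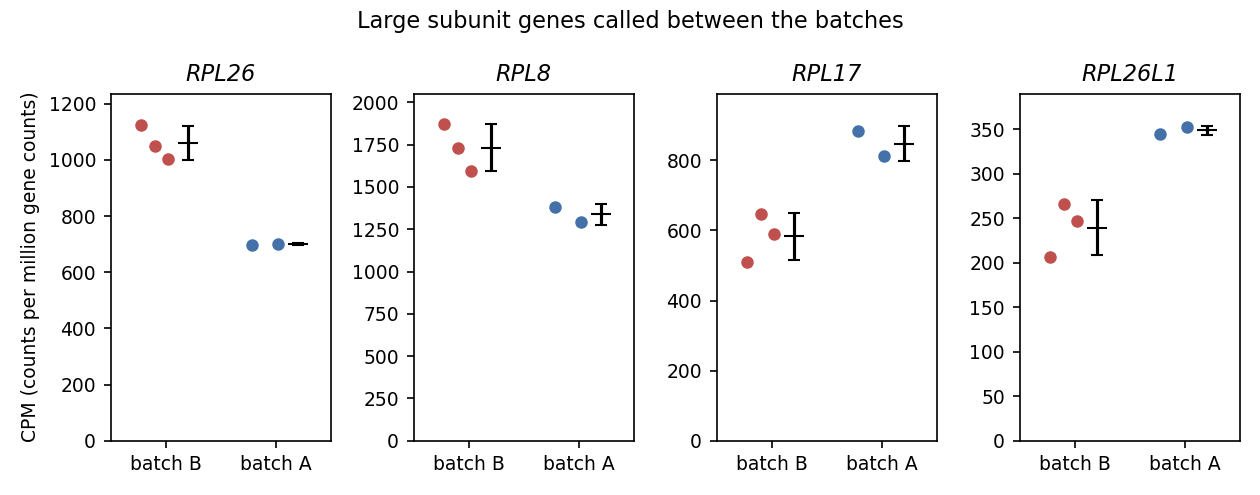
Levels in CPM (vertical axes, from 0) of the 4 called genes in batch B libraries (red points) and batch A libraries (blue points), with the mean and SD in black. RPL26 and RPL8 lie higher in every batch B library, and RPL17 and RPL26L1 lie lower in every batch B library than in either batch A library.

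Paralogs and parents were compared within each library as the share of the paralog in the summed counts of the pair. A scale factor common to all genes of a library cannot change this share, while a shift that differs with level can. The coding sequences of RPL26L1 and RPL26 were identical at 84.1% of aligned bases, with a longest shared stretch of 20 bases. RPL26L1 took 15.5%, 20.2% and 19.7% of its pair in batch B libraries 1, 2 and 3, against 33.1% and 33.4% in batch A libraries 2 and 3. The 95% exact binomial intervals, which cover counting error only, reached no higher than 23.3% in batch B and no lower than 29.6% in batch A. The mean share was 18.5% ± 2.59 in batch B and 33.2% ± 0.253 in batch A (SD, n = 3 and 2), a difference of -14.8 percentage points. By the exact permutation test, two-sided, p was 0.1, which is the lowest value possible with 3 and 2 libraries, and 0.167 after Benjamini-Hochberg adjustment over the 5 pairs.

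RPL36AL and RPL36A encode almost the same protein, and their coding sequences were identical at 89.9% of bases, with a shared stretch of 60 bases. Whether reads of the pair were divided unevenly was not tested, and the counts do not show where in the transcripts the reads lay. RPL36AL had 615, 693 and 676 CPM in batch B libraries 1, 2 and 3, against 801 and 822 CPM in batch A libraries 2 and 3. RPL36A had 934, 985 and 903 CPM in batch B, against 809 and 781 CPM in batch A. The batches did not overlap for either gene, one lower and the other higher in batch B. Neither passed the test, with log2 fold changes of -0.26 and 0.27 (edgeR adjusted p = 0.177 and 0.175). RPL36AL took 41.3% ± 1.53 of the pair in batch B and 50.5% ± 1.1 in batch A (SD, n = 3 and 2). This difference of -9.23 percentage points gave an exact permutation p = 0.1 and 0.167 adjusted over the 5 pairs.

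RPL22 binds RNA at the rim of the tunnel exit, and RPL22L1 is its paralog, at 66.6% identity of coding bases. RPL22 had 597, 787 and 734 CPM in batch B libraries 1, 2 and 3, against 945 and 867 CPM in batch A libraries 2 and 3. RPL22L1 had 185, 231 and 213 CPM in batch B, against 243 and 256 CPM in batch A. Both lay lower in every batch B library, and neither passed the test, with log2 fold changes of -0.32 for RPL22 (edgeR adjusted p = 0.0743) and -0.21 for RPL22L1 (edgeR adjusted p = 0.384). The share of RPL22L1 was 22.9% ± 0.605 in batch B and 21.7% ± 1.68 in batch A (SD, n = 3 and 2), with overlapping libraries (exact permutation p = 0.4).

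RPL7L1, a paralog at 55.2% identity of coding bases with RPL7 and the counterpart of the yeast assembly factor Rlp7, had 356, 339 and 299.2 CPM in batch B libraries 1, 2 and 3. In batch A it had 307 and 285 CPM. RPL7 had 1519.99, 1453 and 1357 CPM in batch B, against 1596 and 1423 CPM in batch A. Each gene overlapped between the batches, with log2 fold changes of 0.17 for RPL7L1 and -0.04 for RPL7 (edgeR adjusted p = 0.477 and 0.92), while the share of RPL7L1 did not, at 18.6% ± 0.51 in batch B and 16.4% ± 0.387 in batch A (SD, n = 3 and 2). The exact permutation p of that share was 0.1, the smallest possible, and 0.167 adjusted over the 5 pairs.

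RPL39L, a paralog of RPL39 that is abundant in testis, was the gene with the fewest counts. It had 27, 51 and 64 counts in batch B libraries 1, 2 and 3, against 51 and 60 counts in batch A libraries 2 and 3. As levels these were 72.3, 88.6 and 93.4 CPM in batch B, against 74.2 and 74.7 CPM in batch A. RPL39 had 1828, 1807 and 1703 CPM in batch B, against 1788 and 1708 CPM in batch A. Both overlapped between the batches, with log2 fold changes of 0.24 for RPL39L and 0.05 for RPL39 (edgeR adjusted p = 0.602 and 0.893). RPL39L took 4.56% ± 0.705 of the pair in batch B and 4.09% ± 0.143 in batch A (SD, n = 3 and 2; exact permutation p = 0.5). The coding sequences share 94.8% of bases and a stretch of 44 bases, and 11 numbered pseudogene rows of RPL39 held counts equal to 16.9% of its own. Whether reads were shared between these rows was not tested.

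**Figure D4:**
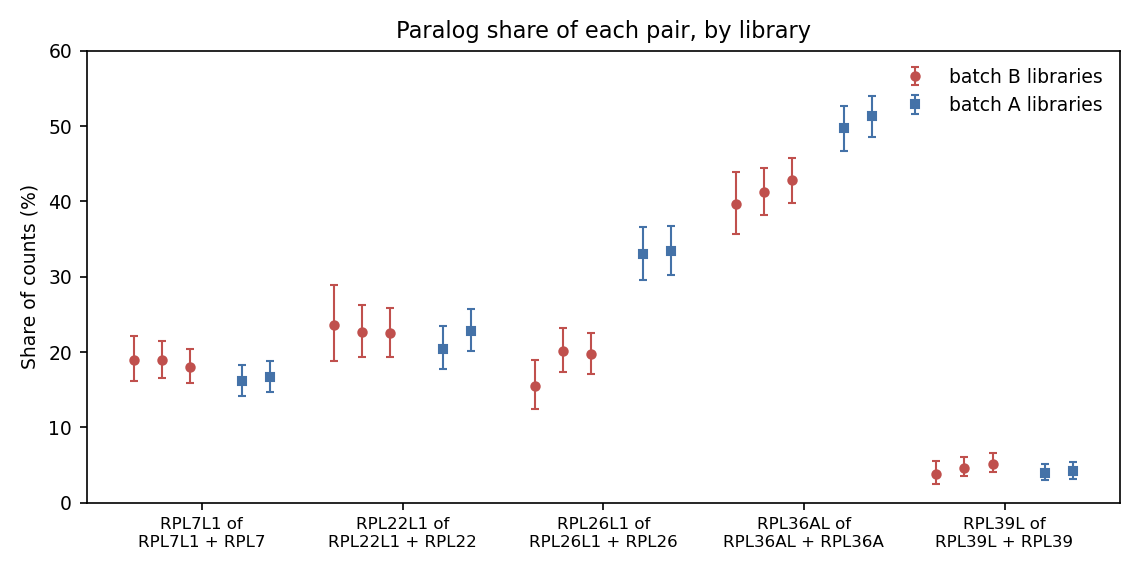
Share of the paralog in the summed counts of paralog and parent (vertical axis, percent) in batch B libraries (red circles) and batch A libraries (blue squares) for 5 pairs, with 95% exact binomial intervals. The intervals of the batches are apart for RPL26L1, from 12.4% to 23.3% in batch B and from 29.6% to 36.7% in batch A, and for RPL36AL, from 35.7% to 45.8% in batch B and from 46.7% to 54.0% in batch A. For RPL7L1 the points are apart and the intervals overlap.

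By role, RPL26 rose and RPL17 fell in the peptide tunnel group, where 7 of 9 did not pass the test. RPL8 rose around the peptidyl transferase centre, where RPL3 and RPL10 did not pass. Among the paralogs RPL26L1 fell. Of all tested genes 4.2% were called, and groups of so few genes cannot show whether calls go with a role. None of the 4 genes of the P stalk and its base passed, with log2 fold changes of 0.12 for RPL12, 0.12 for RPLP1, 0.14 for RPLP0 and 0.17 for RPLP2. RPL10A, the protein of the L1 stalk, which guides spent tRNA out of the ribosome, was at 0.12. The 3 genes of the bridges, RPL24, RPL30 and RPL41, ran from -0.02 to 0.10.

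RPL5 and RPL11 carry the 5S ribosomal RNA into the subunit and, when unassembled, bind MDM2, the inhibitor of p53. RPL11 had 2722, 2370.2 and 2182 CPM in batch B libraries 1, 2 and 3, against 2039.7 and 1925 CPM in batch A libraries 2 and 3, a log2 fold change of 0.32 that did not pass (edgeR adjusted p = 0.13). RPL5 was at 0.02, with overlapping batches. Besides RPL11, the largest positive values not called were RPL36, at 0.33 (edgeR adjusted p = 0.11), and RPL37A, at 0.28 (edgeR adjusted p = 0.203).

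RPL36 had 2647, 2348 and 2113 CPM in batch B libraries 1, 2 and 3, against 1971 and 1871 CPM in batch A libraries 2 and 3. RPL37A had 2601, 2292 and 2039 CPM in batch B, against 2027 and 1849 CPM in batch A. Both genes were highest in batch B library 1, and for RPL37A batch B library 3 stood just above batch A library 2. Besides RPL22 and RPL36AL, the largest negative value not called was RPL14, at -0.27 (edgeR adjusted p = 0.164), with 864, 996 and 1007 CPM in batch B, against 1171 and 1193 CPM in batch A. The 23 genes outside the role groups ran from -0.27 to 0.33, and none was called.

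In 14 of the 50 genes (28%) every batch B library lay above both batch A libraries in CPM, against 13.5% of all tested genes. In 8 (16%) every batch B library lay below, against 17.8% of all tested genes. Across the 50 genes the log2 fold change of batch B over batch A had a Spearman rho of 0.33 with the log2 mean CPM. Level also went with differences between libraries of unlike depth within batch B. In batch B library 1, the shallowest, 43 of the 50 genes had a higher CPM than in library 3, by up to 0.35 on the log2 scale. The 7 others were RPL14, RPL17, RPL22, RPL22L1, RPL26L1, RPL36AL and RPL39L, at -0.13 to -0.37, all with a mean of at most 1046 CPM. Across the 50 genes the log2 ratio of library 1 to library 3 followed the log2 mean CPM, with a Spearman rho of 0.78. These points share both libraries and their depths. Batch B library 3 held 1.83 times the gene counts of library 1, while its counts were 1.49 times those of library 1 in the median of the 10 genes with most counts and 2.12 times in the median of the 10 with fewest.

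Batch B library 3 and batch A library 2 held nearly the same total, 685181 and 686883 gene counts, a pair chosen with their totals known. Between them 16 of the 50 genes were higher and 34 lower in the batch B library, with a median log2 ratio of -0.05. In that pair RPL26 was at 0.52, RPL8 at 0.20, RPL17 at -0.58 and RPL26L1 at -0.48. Every library was also thinned to the smallest total in a single draw. Thinning draws all genes of a library at the same rate. It therefore cannot remove a trend with level, and an unchanged median says nothing about depth. The median log2 fold change of the 50 genes over all 5 libraries was then 0.12, and the values were 0.42 for RPL8, 0.32 for RPL11 and 0.32 for RPL36. After thinning edgeR called RPL26, RPL17 and RPL26L1 of the 50 genes, and 2.27% of 7221 tested genes. When trends with abundance were removed between libraries by limma-voom with cyclic loess, the median of the 50 genes was 0.02, and 19 were called, 9 higher and 10 lower. Of all tested genes that fit called 4.66%, 2.52% higher and 2.14% lower. Its calls are relative to the trend at the level of each gene. Some standard errors were smaller than in the main fit, 0.03 against 0.12 for RPL11, while that of RPL26L1 was 0.11 in both. The 9 were RPL7A, RPL8, RPL11, RPL18, RPL26, RPL27, RPL36, RPL36A and RPL37A, and the 10 were RPL4, RPL6, RPL14, RPL17, RPL21, RPL22, RPL24, RPL26L1, RPL36AL and RPL37. The 4 genes called by edgeR kept their direction and their calls there. Transcript GC content also went with the fold changes, with a Spearman rho of 0.40 over the 50 genes and 0.22 over 8615 tested genes. With the GC trend removed, RPL26 was called higher and RPL17 and RPL26L1 lower, and of all tested genes 3.22% were called, 1.44% higher and 1.78% lower. The same 3 genes were called by the DESeq2 Wald test, which called 1.97% of 5288 genes, 1.12% higher and 0.851% lower. With library totals in place of TMM scaling edgeR called 9 of the 50, 4 higher and 5 lower, and 4.45% of all tested genes, 1.93% higher and 2.52% lower. With limma-voom, 8 of the 50 were called, 5 higher and 3 lower, and 3.85% of all tested genes, 2.06% higher and 1.79% lower. The 4 genes called in the edgeR test with TMM were among those called in both.

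**Figure D5:**
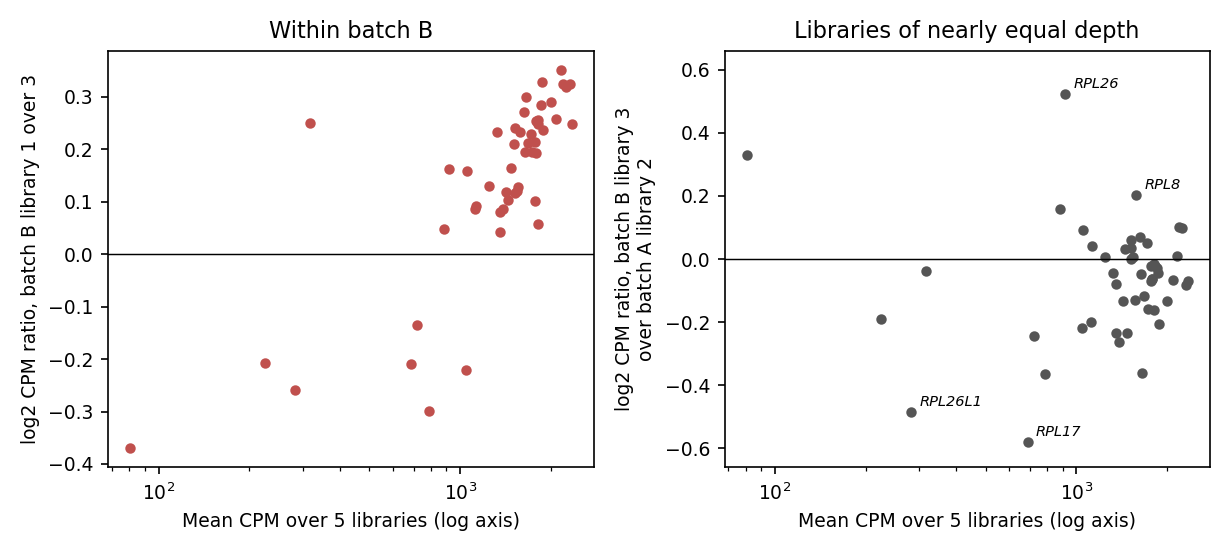
Log2 CPM ratio (vertical axes) of batch B library 1 over library 3 (left) and of batch B library 3 over batch A library 2, libraries of nearly equal total (right), against the mean CPM over 5 libraries (log axis) for the 50 genes. On the left the ratio is negative for 7 genes and positive for 43, and on the right 16 genes are positive and 34 negative, with RPL26 at 0.52 and RPL17 at -0.58.

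By annotated start, the 29 genes with the pyrimidine run had log2 fold changes of -0.32 to 0.62 with a median of 0.14, and the 13 genes without it had -0.50 to 0.23 with a median of 0.07. The 13 include RPL3, RPL17, RPL19 and RPL36AL, in which a stretch of C and T lies before or across an annotated start. They also include RPL10A, in which such a stretch begins just after the start. Of the paralogs with an entry, RPL7L1, RPL26L1 and RPL36AL are among the 13. The grouping therefore depends on the exact annotated base. Of the called genes with an entry, RPL26 carries the run, and RPL17 and RPL26L1 do not.

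Other genes of the ribosome were counted in the same fit. Of 33 tested small subunit protein genes, 2 rose, 1 fell and 30 did not pass, with a median of 0.15. The gene that fell was RPS27L, a paralog of RPS27, with 163, 184 and 232 CPM in batch B libraries 1, 2 and 3, against 301 and 280.1 CPM in batch A libraries 2 and 3, a log2 fold change of -0.53 (edgeR adjusted p = 0.00123). RPS10 rose by 0.43 on the log2 scale (edgeR adjusted p = 0.00678), and RPS9, named after its value was seen, by 0.35 (edgeR adjusted p = 0.0419). Of 41 tested assembly and export factors of the large subunit, 1 fell, 0 rose and 40 did not pass, with a median of -0.02. The one that fell was RPF2, which helps load the 5S particle, with 155, 139 and 162 CPM in batch B, against 217 and 217 CPM in batch A, a log2 fold change of -0.49 (edgeR adjusted p = 0.0119).

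Numbered pseudogene rows, processed copies named for a parent gene, held counts equal to 3.92% of those of the 50 genes. The share passed 10% of the parent row for 6 genes and was highest for RPL24, at 19.9%. The counts do not show whether those reads came from the parents, so values of these 6 genes are uncertain to that extent. Adding the rows to their parents left the same 4 genes called.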

How the data were processed

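The authors deposited raw counts, whole numbers per gene symbol, for 5 libraries. The submitters' processing notes name cutadapt 1.2.1, STAR 2.4.0a, hg19 and GRCh37. For the counter, its annotation, its use of strand and any collapsing of molecular identifiers, the entry is: not given in the sources used here. A column's batch was read from the start of its name, which matches sample titles, and 0 columns were left unused. The 52 spike-in rows were kept out of totals and tests. CPM are counts per 1000000 gene counts.

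The members, lists and tests were chosen with earlier results of these data known. The comparison of batch B with batch A used edgeR 4.0.16 under R 4.3.3 (TMM scaling, filterByExpr, quasi-likelihood F test, batch as the only term), and Benjamini-Hochberg adjusted p under 0.05 over 9215 genes was a call. A standard error is the ratio of the log2 fold change to the root of F. On data simulated for batch B against batch A over 9177 genes, recovery was 34.3% of 67 genes altered 1.5-fold, 85.1% of 67 at 2-fold and 97.0% of 66 at 4-fold, and 4 calls were false. The altered genes were drawn from those with a mean count of at least 20. The simulation gave every gene the same dispersion and held no trend with level or GC content, unlike the data. Paralog shares were compared with exact permutation tests over 10 splits, with exact Clopper-Pearson intervals. Intervals and counts cover counting error only, and molecules may not be independent of PCR copies.

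Alternatives were DESeq2 size factors, library totals, no filter, a mean count of at least 20, the DESeq2 1.42.0 Wald test, limma 3.58.1 voom with and without cyclic loess, thinning to the smallest library in a single seeded draw, pseudogene rows added to parents, each library left out, and, added later, removal of a GC trend (loess, span 0.5) and a replicate block by column number. Where 1 library of batch A remained, its spread was taken to equal that within batch B. Coding length, coding identity and GC content came from the principal transcript of GENCODE release 29, matched by symbol, which gave a GC value for 93.5% of tested genes. Start windows are from RefSeq, build GRCh38.p14, another build than that of the counts, so no position was carried between them.

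Named genes are the called members, the 5 paralogs and their parents, the 3 members of highest and of lowest mean CPM, the 3 largest rises and falls not called, up to 3 members of each role group, and the called genes of smallest p, at most 2 in each of the other lists. Genes named for their start, level per kb or pseudogene share were chosen after their values were seen. A further gene of that rule is not reported here.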

Additional observations from a re-analysis of the deposited data

How the results depend on the processing

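The number of called genes among the 50 was 4, 2 higher and 2 lower. It was 9 with library totals (4 higher and 5 lower), where 4.45% of all tested genes were called. With limma-voom it was 8 (5 higher) beside 3.85%, and with limma-voom and cyclic loess 19 (9 higher and 10 lower) beside 4.66%. With no filter on low counts it was 5, with RPL22 added as lower (edgeR adjusted p = 0.0497), beside 1.29% of 20087 genes. Only 1 was called higher with the DESeq2 Wald test, after thinning and with the GC trend removed, and each of these called RPL17 and RPL26L1 lower. Leaving out each library gave 2 to 7 called, 1 to 5 higher and 1 to 2 lower, namely 2 without batch A library 2 and 7 when batch B library 3 was left out, with 1.43% and 3.81% of all tested genes called in these fits. RPL26 and RPL26L1 were called in all 16 alternatives, RPL17 in 15 and RPL8 in 9. The median log2 fold change was 0.06 to 0.18 with a library left out and 0.09 to 0.14 elsewhere, apart from 0.02 with cyclic loess and 0.05 with the block. Leaving out batch A library 2 gave 0.18, batch A library 3 gave 0.07, batch B library 1 gave 0.06 and batch B library 3 gave 0.18. The share of RPL26L1 differed by -15.6 to -13.3 points and that of RPL36AL by -10.01 to -8.46 with a library left out. That of RPL7L1 differed by 1.96 to 2.53 points in these fits. That of RPL22L1 was 0.103 points without batch A library 2 and 2.48 without batch A library 3, and that of RPL39L was 0.15 without batch B library 3 and 0.848 when library 1 of that batch was left out. Thinning moved that of RPL22L1 to 1.12 and that of RPL39L to 0.332, against 1.29 and 0.47. RPL39L had 27 to 64 counts a library. The causes of these shifts were not tested. The number that ends a column is not tied by the labels to a shared culture or day, and over 9215 genes the difference between libraries 2 and 3 in batch B and that in batch A had a Pearson r of -0.0034. With that number as a replicate block, added with the data in view, 16 of the 50 genes were called, 10 higher and 6 lower, with 4.28% of all tested genes called.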

Other observations

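Large subunit paralogs of other tissues were at or near 0. RPL10L, known from testis, had 0 of 3124391 gene counts over the 5 libraries, which allows up to 0.960 CPM at the level of 3 counts. RPL3L, known from striated muscle, had 1 count, in batch B library 2.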
